A study of Homo sapiens with 4 samples.

Results

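MARCHF genes encode membrane-associated RING-CH ubiquitin ligases, and 8 of them are described here: MARCHF2, MARCHF3, MARCHF4, MARCHF5, MARCHF6, MARCHF7, MARCHF8 and MARCHF9. Every probe that the array annotation assigns to these symbols was taken, above background or not, which gave 14 probes for 8 of the 19778 genes named on the array. The set was put together because MARCHF4 was higher in mH2A1.2_KO cells in these data, so the differences between the groups are given as a description with no test, and nothing is read from them.

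The study measured RNA of prostate cancer cells, of a line spelled DU154 in the labels. The wild type group has 2 arrays of cells labelled Wild type, and the mH2A1.2_KO group has 2 arrays of cells of the same line, labelled mH2A1.2_KO, in which mH2A1.2, one splice product of the macroH2A1 histone gene, is said to be depleted. The labels name no other allele, agent or treatment, and the sources used here do not give how the depletion was made or whether the depleted cells are 1 clone. Nothing says that replicates came from separate cultures, so the spread between arrays may be technical.

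A ubiquitin ligase hands ubiquitin from an E2 enzyme to a protein, which marks that protein for degradation or for sorting inside the cell. Most MARCHF ligases carry a RING-CH finger, a zinc-binding fold that recruits the E2 enzyme, next to membrane-spanning helices, and they act on other membrane proteins of the Golgi, endosomes, endoplasmic reticulum or mitochondria. Several of them remove receptors and immune proteins from the cell surface when overproduced in cultured cells. MARCHF7, also called axotrophin, has the RING-CH finger but is generally described as lacking membrane-spanning helices, so the name membrane-bound does not cover it.

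The arrays reported 35.4% to 38.9% of probes above background (a detection p-value under 0.01), with median raw signals of 139.8 to 142.4. The brightest probe of MACROH2A1, which encodes the depleted protein, read 13.02 and 12.91 (log2 normalized signal) on the wild type arrays against 11.97 and 11.83 on the mH2A1.2_KO arrays, and 2 further probes above background differed by -1.02 and 0.62. Of 7 fixed epithelial markers, 6 were above background (a list median of 0.80 higher in mH2A1.2_KO, with summed raw signals of 7589 and 7989 in wild type against 15983 and 16193). Of 4 luminal prostate genes with a probe, TMPRSS2 was above background on 1 array, wild type replicate 1, and KLK3, KLK2 and FOLH1 on none. Markers of other cells were above background on at least 1 array for 2 of 6 fibroblast, 2 of 5 leukocyte, 0 of 4 endothelial and 1 of 4 osteoclast genes, and their part in the results was not tested. The 2 deposited tables disagree on which array is wild type replicate 2 and which is mH2A1.2_KO replicate 1. The names of the normalized table are used, and the difference of each family probe above background is also given for the concordant pair, the 2 arrays named the same way in both tables (replicate 1 of wild type and replicate 2 of mH2A1.2_KO).

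MARCHF4, whose rise was the reason for the set, had the largest difference of the family. It measured 3.63-fold higher in mH2A1.2_KO, while every other family probe above background lay within -0.37 to 0.20 on the log2 scale. MARCHF4, a ligase of the Golgi that lowers surface MHC class I and CD4 when overproduced, is read by 1 probe, ILMN_1789991. Its raw signal was 234.2 and 316.3 on the wild type arrays against 908.5 and 790.9 on the mH2A1.2_KO arrays. On the log2 normalized scale it measured 7.42 and 8.11 in wild type replicates 1 and 2, and 9.78 and 9.47 in mH2A1.2_KO replicates 1 and 2. Both mH2A1.2_KO arrays lay above both wild type arrays, and the probe was above background on all 4 arrays.

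The log2 difference of MARCHF4, mH2A1.2_KO minus wild type, was 1.86 ± 0.26 (moderated SE, 2 arrays per group). Its replicates lay 0.69 apart in wild type and 0.32 apart in mH2A1.2_KO, both less than the difference between the groups. In the concordant pair the difference was 2.05. When 1 array was left out it ran from 1.51 to 2.21, and with arrays named by the header of the raw table it was 0.19 ± 0.77. Of 16950 probes above background, 3 differed by at least as much, MARCHF4's own probe and the 2 probes of MUC1, an epithelial membrane mucin. In bulk RNA, a change in the share of cells that express a gene and a change of RNA per cell cannot be told apart.

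limma called 0 of the 16950 probes at an adjusted p under 0.05 (0%), with a lowest adjusted p of 0.193, and 1282 probes (7.56%) had an unadjusted p under 0.05. The count of 0 was 69 without wild type replicate 1 and 211 without wild type replicate 2, and it stayed 0 without either mH2A1.2_KO array. Of the 8 family probes above background, 1 was at least 2-fold apart, where 0.773% of all probes were. Arrays did not overlap between the groups for 1 family probe higher in mH2A1.2_KO, MARCHF4, and 3 lower, where 17.1% of all probes were higher and 18.5% lower without overlap. In all, 4 of the 8 family probes measured higher and 4 lower, beside 47.9% higher over all probes. MARCHF2 and MARCHF5 enter these counts with more than 1 probe, and probes of a gene are not independent. With the brightest probe above background for each of 5 genes, 2 measured higher and 3 lower, beside 48.0% higher over all genes and unnamed probes. Arrays did not overlap for 1 higher and 2 lower, beside 17.1% and 18.7%. MARCHF4 was chosen on this contrast, and the shares are printed for reference.

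**Figure D1:**
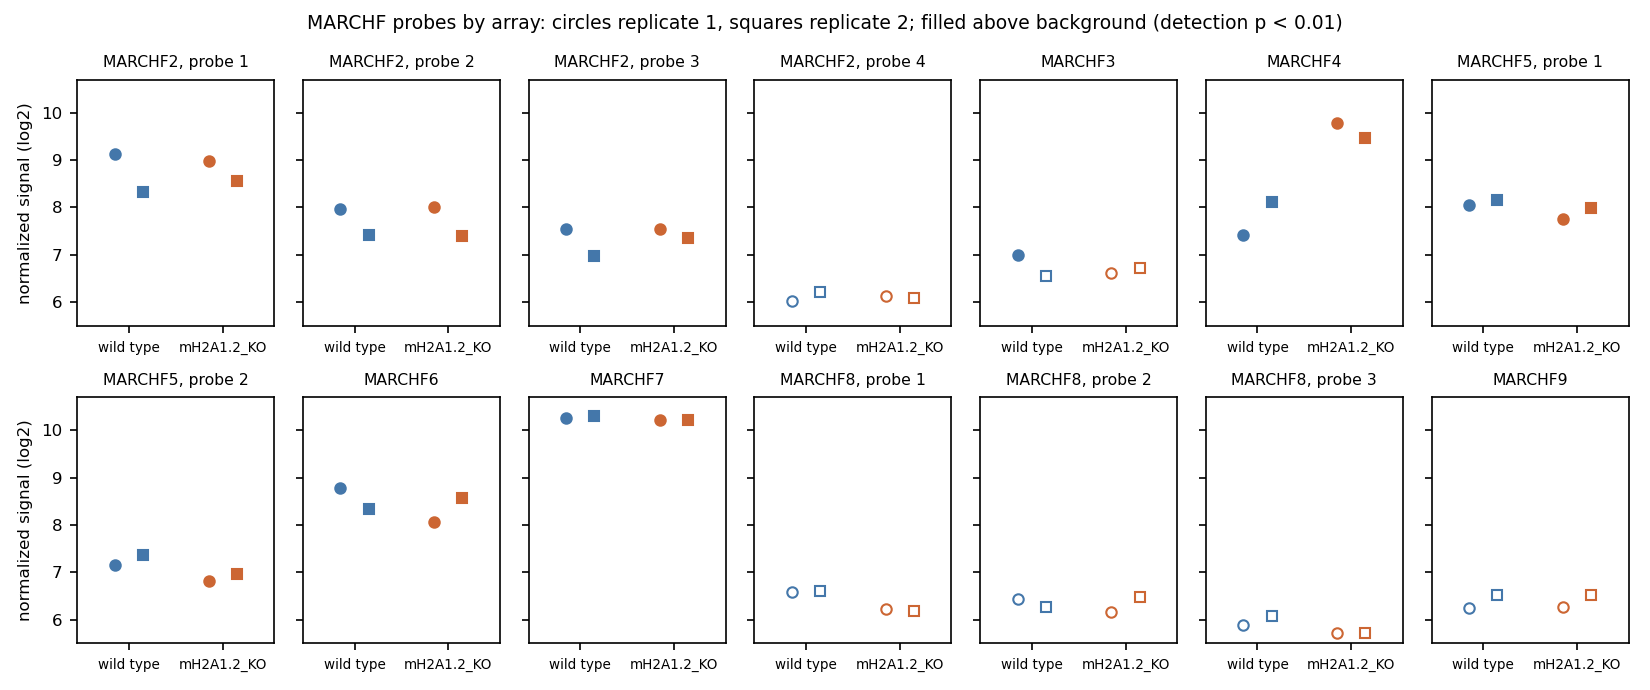
Log2 normalized signal (vertical axis) of the 14 MARCHF probes on each array, with circles for replicate 1, squares for replicate 2 and filled symbols above background. Probes of a gene are numbered from the brightest. MARCHF4 stands at 7.42 and 8.11 on the wild type arrays against 9.78 and 9.47 on the mH2A1.2_KO arrays, and the probes of MARCHF8 and MARCHF9 are open on all 4 arrays.

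The promoter windows of MARCHF4, of MARCHF9, its close relative, and of MARCHF7, whose signal was the steadiest, are shown as examples that differ in CpG content. The choice of the family did not use this feature, but these windows were picked for it. Their contrast is therefore not a result. Where a gene has more than 1 window, the one richest in CG is printed. Each is a RefSeq window (build GRCh38.p14) of 300 bases, 250 before the annotated start and 50 from it, printed 5′ to 3′ on the gene's strand, with every CG in capitals. The MARCHF4 window is chr2:216372434-216372733 on the minus strand, the MARCHF7 window chr2:159712256-159712555 on the plus strand and the MARCHF9 window chr12:57754853-57755152 on the plus strand.
MARCHF4: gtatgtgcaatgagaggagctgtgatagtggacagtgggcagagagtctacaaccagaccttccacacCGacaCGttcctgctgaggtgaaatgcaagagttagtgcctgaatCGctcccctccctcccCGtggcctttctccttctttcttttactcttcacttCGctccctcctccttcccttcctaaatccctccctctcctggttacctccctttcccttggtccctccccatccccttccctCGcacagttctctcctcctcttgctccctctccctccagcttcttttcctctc
MARCHF7: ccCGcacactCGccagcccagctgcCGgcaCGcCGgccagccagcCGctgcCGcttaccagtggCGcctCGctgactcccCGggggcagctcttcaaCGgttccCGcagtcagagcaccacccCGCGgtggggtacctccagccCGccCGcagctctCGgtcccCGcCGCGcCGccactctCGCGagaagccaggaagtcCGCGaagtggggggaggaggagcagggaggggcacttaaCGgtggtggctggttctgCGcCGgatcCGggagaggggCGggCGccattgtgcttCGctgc
MARCHF9: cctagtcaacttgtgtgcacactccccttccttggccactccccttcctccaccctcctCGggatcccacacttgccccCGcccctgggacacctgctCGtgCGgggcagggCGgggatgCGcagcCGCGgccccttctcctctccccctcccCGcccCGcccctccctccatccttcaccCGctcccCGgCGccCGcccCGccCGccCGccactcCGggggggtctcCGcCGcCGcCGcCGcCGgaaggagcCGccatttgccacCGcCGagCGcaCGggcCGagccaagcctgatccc

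The MARCHF4 window held 6 CG, against 32 for MARCHF7 and 30 for MARCHF9. RefSeq windows matched 7 of the 8 genes, all but MARCHF6, and the window richest in CG held 38 for MARCHF2, 35 for MARCHF3, 31 for MARCHF5 and 29 for MARCHF8. MARCHF2, MARCHF7 and MARCHF8 each had a second window, with 4, 4 and 1 CG. Over 34796 windows of this length the median was 14 CG, and 36.9% had 6 or fewer. The GC box, searched as GGGCGG or CCGCCC and so on both strands, was present in 44.9% of all windows. It was not found in the MARCHF4 window and occurred 7 times in the MARCHF9 window, overlapping matches included. The printed MARCHF7 window held 2, and the richest windows of MARCHF2, MARCHF3, MARCHF5 and MARCHF8 held 7, 2, 2 and 1. The second windows of MARCHF2, MARCHF7 and MARCHF8 held 0, as did that of MARCHF4. The TATA element, searched as TATAAA or TTTATA, was in neither the MARCHF4 nor the MARCHF9 window. It occurred 1 time in the second MARCHF7 window and was in 11.6% of all windows. These are letter matches in fixed windows and say nothing of factor binding.

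**Figure D2:**
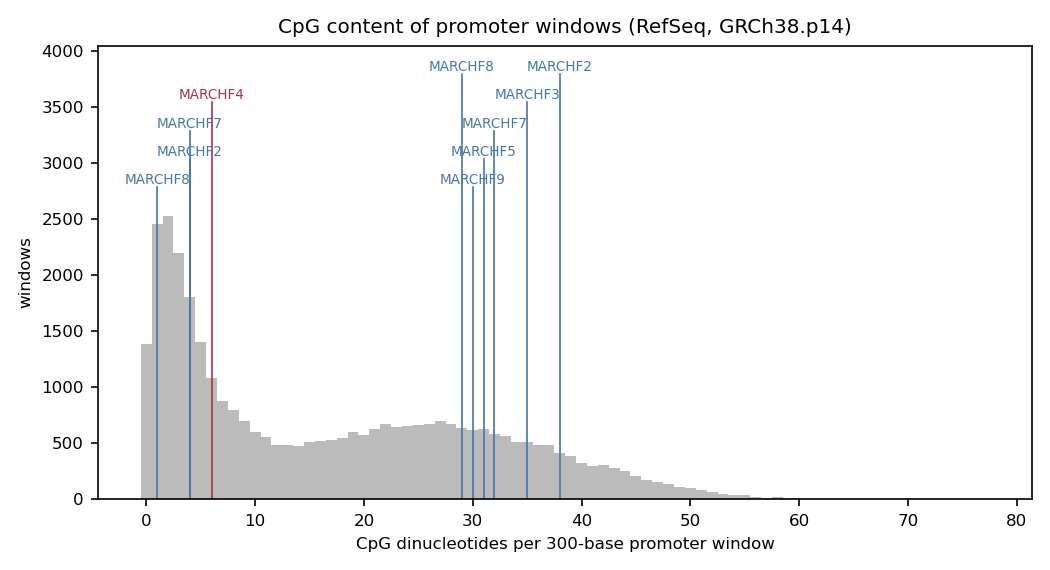
Number of CpG dinucleotides (horizontal axis) in 300-base RefSeq promoter windows, with grey bars for all 34796 windows (vertical axis, number of windows) and vertical lines for the 10 windows of MARCHF genes, MARCHF4 in red. MARCHF4 stands at 6. Its 6 relatives with a window each have 1 at 29 or above, and MARCHF2, MARCHF7 and MARCHF8 have another at 4, 4 and 1.

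MARCHF9 and MARCHF8 were not seen above background. MARCHF9, a Golgi and lysosome ligase that acts on MHC class I and ICAM1, measured 6.25 and 6.52 on the wild type arrays against 6.27 and 6.53 on the mH2A1.2_KO arrays on the log2 scale. Its raw signals of 133.4, 140.0, 135.3 and 138.3 (wild type, then mH2A1.2_KO) were near the arrays' medians. MARCHF8, which sends the transferrin receptor, MHC class II and CD86 to lysosomes, is read by 3 probes with log2 signals from 5.71 to 6.61. Its brightest probe measured 6.59 and 6.61 on the wild type arrays against 6.23 and 6.18 on the mH2A1.2_KO arrays. Since none of these arrays is above background, the values have no order and no fold is given.

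MARCHF3, an endosomal ligase close to MARCHF2 in sequence, was above background on 1 of 4 arrays. It measured 6.99 and 6.56 on the wild type arrays against 6.61 and 6.73 on the mH2A1.2_KO arrays, and only wild type replicate 1 passed the detection threshold. The arrays of the 2 groups overlapped, and no fold is given. The 7 probes of MARCHF1, MARCHF10 and MARCHF11, the remaining genes of the family, were below background on all 4 arrays, with raw signals from 115.1 to 140.5.

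MARCHF2 varied more between replicates than between the group means. It is a ligase of endosomes and the endoplasmic reticulum with roles in receptor trafficking and in degradation of the NF-kappaB regulator NEMO, and 3 of its 4 probes were above background. The brightest probe measured 9.13 and 8.33 in wild type replicates 1 and 2, and 8.98 and 8.56 in mH2A1.2_KO replicates 1 and 2. The second probe, annotated to the same transcript, measured 7.97 and 7.43 against 8.01 and 7.40. The third, annotated to another transcript, measured 7.54 and 6.97 against 7.56 and 7.35. With each probe, replicate 1 was the higher array in both groups, and the groups overlapped.

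The differences of the MARCHF2 probes between groups were 0.04 ± 0.29, 0.00090 ± 0.28 and 0.20 ± 0.23 (log2, moderated SE, 2 arrays per group). Replicate 1 lay above replicate 2 by 0.79, 0.55 and 0.57 in wild type and by 0.41, 0.61 and 0.20 in mH2A1.2_KO. In the concordant pair, whose replicate numbers differ, the 3 probes differed by -0.56, -0.58 and -0.19. With arrays named by the header of the raw table they differed by -0.60 ± 0.16, -0.58 ± 0.14 and -0.38 ± 0.18. The fourth probe was below background on all arrays, at 6.03 to 6.21. Replicate 1 was above replicate 2 in both groups for 33.4% of all probes and below it in both for 35.5%, and the deviations of same-numbered arrays had a correlation of 0.57 across probes, which are not independent replicates. The part of array quality was not tested: 38.9% and 35.4% of probes were above background in wild type replicates 1 and 2, and 35.8% and 35.9% in mH2A1.2_KO.

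**Figure D3:**
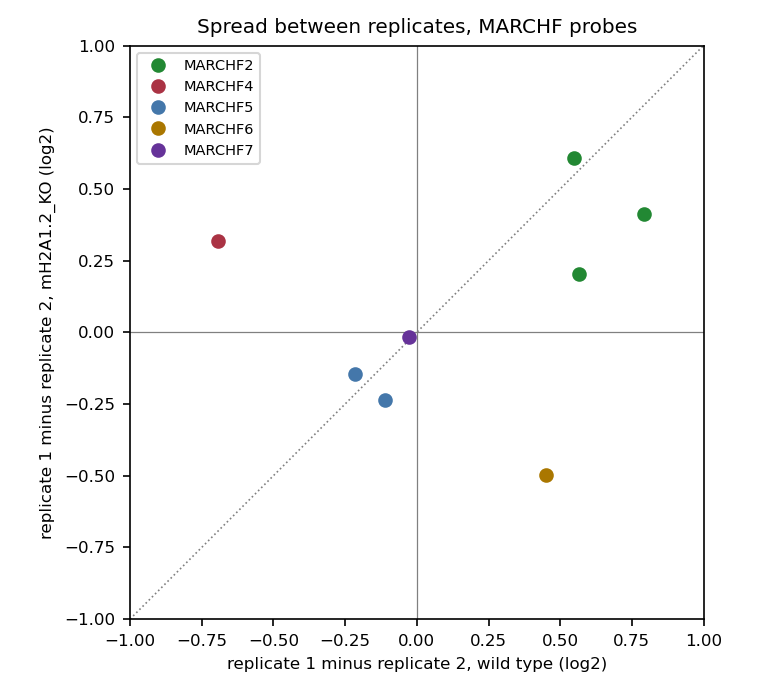
Replicate 1 minus replicate 2 on the log2 scale in wild type (horizontal axis) and mH2A1.2_KO (vertical axis) for the 8 MARCHF probes above background, with equal values on the dotted line. The 3 MARCHF2 probes lie at the upper right, MARCHF7 lies at -0.027 and -0.015, and MARCHF4 and MARCHF6 have replicate differences of opposite sign in the 2 groups.

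MARCHF5 measured lower in mH2A1.2_KO with both of its probes. It sits in the mitochondrial outer membrane and acts on proteins of mitochondrial fission, antiviral signalling and survival. Its brighter probe measured 8.06 and 8.17 on the wild type arrays against 7.76 and 7.995 on the mH2A1.2_KO arrays, a difference of -0.23 ± 0.17. The other probe, annotated to the same transcript, measured 7.15 and 7.37 against 6.82 and 6.96, a difference of -0.37 ± 0.17. With either probe the mH2A1.2_KO arrays lay below the wild type arrays, by 1.18-fold and 1.29-fold on average. In the concordant pair the differences were -0.06 and -0.19. When 1 array was left out they ran from -0.35 to -0.12 and from -0.48 to -0.26, and with arrays named by the header of the raw table they were 0.17 and 0.18.

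MARCHF6 is the family's ligase of the endoplasmic reticulum, related to yeast Doa10, and degrades the sterol enzyme squalene epoxidase. Its probe measured 8.78 and 8.33 on the wild type arrays against 8.06 and 8.56 on the mH2A1.2_KO arrays, a difference of -0.24 ± 0.24 with overlapping arrays. Replicate pairs went opposite ways, with -0.72 for replicate 1 and 0.23 for replicate 2, and the concordant pair differed by -0.22. MARCHF7, which has been linked to T cell quiescence and the LIF receptor, measured 10.27 and 10.29 on the wild type arrays against 10.21 and 10.22 on the mH2A1.2_KO arrays. Its difference of -0.07 ± 0.15 had arrays that did not overlap, and it was smaller than its SE, with -0.045 in the concordant pair. With arrays named by the header of the raw table, MARCHF6 differed by 0.03 and MARCHF7 by 0.02. The replicates of MARCHF7 lay 0.027 and 0.015 apart, against medians over all probes of 0.24 (wild type) and 0.17 (mH2A1.2_KO).

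**Figure D4:**
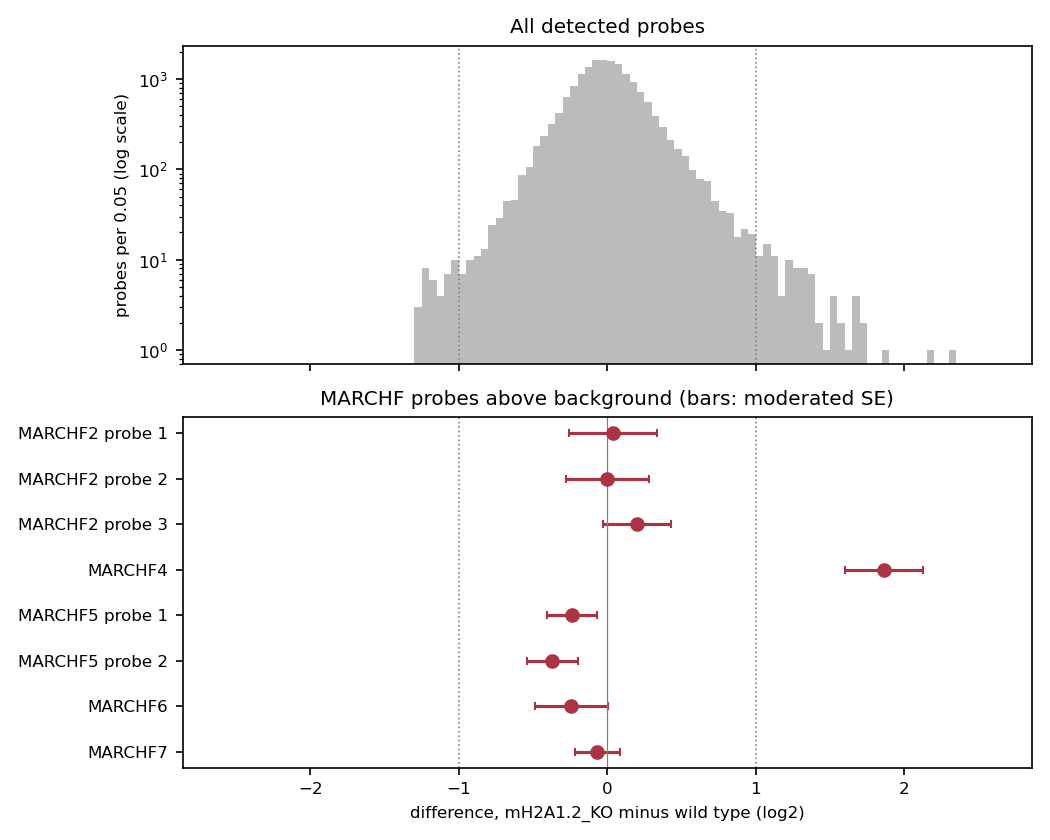
Top, number of probes (log axis) by log2 difference, mH2A1.2_KO minus wild type, for all 16950 probes above background. Bottom, the same difference for the 8 MARCHF probes above background with moderated SE bars, and dotted lines at 2-fold. MARCHF4 stands at 1.86, and the other 7 lie between -0.37 and 0.20.

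The genes with an expression pattern most like MARCHF4 over the 4 arrays were found by the root mean square distance of log2 signals, each minus its own mean, over genes represented by their brightest probe. They were SNORA28 (distance 0.16), S100A3 (0.18), MUC1 (0.28), PLAAT4 (0.29), EVA1A (0.30) and NQO1 (0.33). SNORA28, a small nucleolar RNA, measured 6.84 and 7.28 on the wild type arrays against 8.92 and 8.44 on the mH2A1.2_KO arrays. S100A3, a calcium-binding protein, measured 7.78 and 8.63 against 9.82 and 9.91. EVA1A was above background on 1 of 2 wild type arrays, its 3 probes differed by 0.51 to 1.28, and the 2 probes of NQO1, a quinone reductase, by 0.48 and 1.29. With 4 arrays, these distances describe likeness in the same contrast only.

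No measured gene beside MARCHF4 on chromosome 2 differed by as much. As MARCHF4 was chosen for its difference, this was likely in advance and says nothing of the region. Of the 4 protein-coding genes on each side in the RefSeq order (GRCh38.p14), all 8 had a probe and 6 had one above background on at least 2 arrays. XRCC5, which encodes the DNA repair protein Ku80 and is the next gene on one side, measured 9.70 and 10.13 on the wild type arrays against 9.76 and 10.06 on the mH2A1.2_KO arrays. SMARCAL1, an annealing helicase of stalled replication forks and the next gene on the other side, measured 8.57 and 8.68 against 8.96 and 8.90, a difference of 0.30 ± 0.16. IGFBP2, an insulin-like growth factor binding protein, measured 8.36 and 7.84 against 7.56 and 7.46, a difference of -0.59 ± 0.21. MREG (0.08 ± 0.18), PECR (-0.24 ± 0.16) and RPL37A (-0.05 ± 0.16) differed less, and TMEM169 and IGFBP5 were each above background on 1 array.

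**Figure D5:**
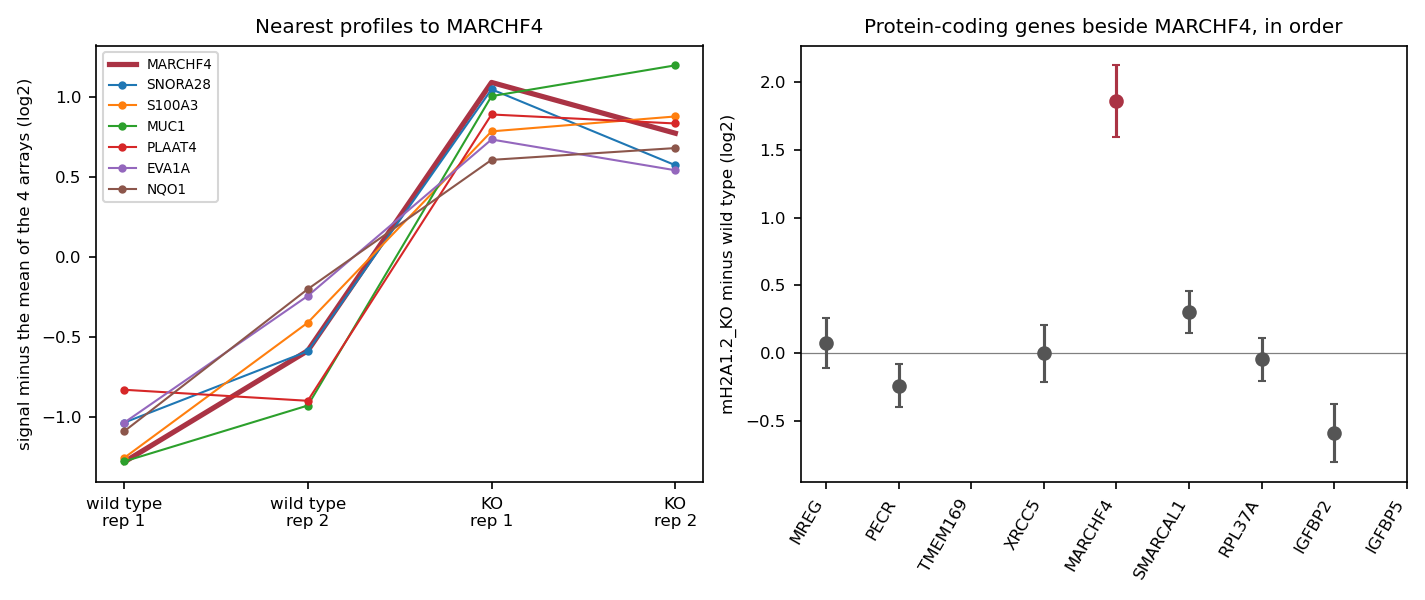
Left, log2 signal minus the mean of the 4 arrays for MARCHF4 and the 6 genes nearest to it, with lines joining the arrays of a gene. Right, log2 difference with moderated SE of MARCHF4 (red) and the protein-coding genes beside it in chromosome order, with no point where a gene was not above background on 2 arrays. MARCHF4 stands at 1.86 and its neighbours lie between -0.59 and 0.30.

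Proteins reported as substrates or partners of MARCHF ligases were divided in direction at the RNA level. Of 36 listed genes 33 had a probe and 28 were above background, of which 13 measured higher and 15 lower in mH2A1.2_KO. Their median log2 difference was -0.014, beside -0.011 over all 13786 genes and unnamed probes, and 0 passed the test, as in the whole table (0%). Arrays did not overlap for 7 higher and 4 lower, where 17.1% of all were higher and 18.7% lower without overlap. PLIN2, a lipid droplet protein degraded through MARCHF6, measured 9.62 and 10.13 on the wild type arrays against 10.46 and 10.84 on the mH2A1.2_KO arrays, a difference of 0.78 ± 0.24. OPTN, an autophagy receptor, differed by 0.72 ± 0.22, and CDH1, the adhesion protein E-cadherin, by 0.65 ± 0.23. Among the surface proteins that MARCHF4 or MARCHF9 is reported to act on, HLA-B differed by 0.28 ± 0.24, HLA-C by 0.31 ± 0.23 and ICAM1 by -0.02 ± 0.21. HLA-B, HLA-C and ICAM1 were chosen for mention after their values were seen.

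The enzymes that supply ubiquitin to these ligases were likewise divided. Of 21 listed genes of ubiquitin, E1 and E2 enzymes, 14 had a probe and all 14 were above background, 8 measured higher and 6 lower, and the median was 0.065. UBE2V2, a partner of the E2 enzyme UBE2N, measured 10.53 and 10.62 on the wild type arrays against 9.96 and 10.05 on the mH2A1.2_KO arrays, a difference of -0.57 ± 0.16. UBE2J1, an E2 enzyme of the endoplasmic reticulum, differed by -0.49 ± 0.22, and UBE2K by 0.34 ± 0.19, with 0.04 for its second probe. Arrays did not overlap for 4 higher and 4 lower of the 14, beside 17.1% higher and 18.7% lower over all genes and unnamed probes.

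Other RING ligases with membrane anchors numbered 23 above background of 31 with a probe and 33 listed, 10 higher and 13 lower, with a median of -0.021. RNF19B measured 8.09 and 7.83 on the wild type arrays against 7.28 and 7.47 on the mH2A1.2_KO arrays, a difference of -0.59 ± 0.18. RNF144A, of the same RING-between-RING class, differed by -0.49 ± 0.20, and SYVN1, the main ligase of protein quality control in the endoplasmic reticulum, by 0.39 ± 0.18. Arrays did not overlap for 7 higher and 6 lower of the 23, beside the same 17.1% and 18.7%. None of these 23 genes was 2-fold apart, where 0.791% of all genes and unnamed probes were, and 0 passed the test.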

How the data were processed

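Per the labels' protocols, RNA was turned into biotin-labelled cRNA for Illumina arrays of 1 colour. GenomeStudio is named in the submitters' processing notes. The authors deposited a table of 47230 probes with linear raw intensity and, beside it, the deposited detection p-value for every array. The authors also deposited normalized values on a log2 scale, with values in 43893 of 43957 rows and a normalization not given in the sources used here. Correlating probe-centred signals over 7303 bright probes (mean above 8.5) matched every raw array to 1 normalized column (lowest correlation 0.998), and 2 of the 4 matches differed from the raw table's header. The log2 values were quantile normalized, and 16950 probes detected (p under 0.01) on 2 arrays or more entered a two-sided limma fit (version 3.58.1, R 4.3.3, lmFit then eBayes), adjusted by Benjamini-Hochberg over all of them with a threshold of 0.05. The fit was tested on simulated data drawn with each probe's moderated spread. That spread was chosen after a first simulation, with the unmoderated spread, recovered fewer of the planted changes and missed the minimum set for it. Simulated arrays were drawn independently, while same-numbered arrays here deviated together (correlation 0.57), so the simulation is no support for the fit. Precision is limited by the number of arrays.

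Genes were named through the platform annotation, with symbols updated by Entrez ID: 29471 probes with values had 1 symbol, 0 had several and 14422 were unnamed here. In gene lists the brightest probe above background stood for a gene. The members and lists were chosen with earlier results of these data known. Named genes are every family and MACROH2A1 probe, up to 3 genes per list with the largest difference, the 6 profiles nearest to MARCHF4 and 4 neighbours on each side. HLA-B, HLA-C, ICAM1 and the cell type markers KLK3, KLK2, FOLH1 and TMPRSS2 fall outside this rule and were named after their values were seen. The alternatives were other scalings, filters, array names and a replicate block.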

Additional observations from a re-analysis of the deposited data

How the results depend on the processing

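The difference of MARCHF4 ran from 1.51 to 2.21 when 1 array was left out and from 1.63 to 2.23 over other scalings, filters and models. Both mH2A1.2_KO arrays lay above both wild type arrays, so leaving 1 out could not reverse the sign. The other filters and models left the difference at 1.86. As MARCHF4 was chosen on this contrast, these ranges are a description and no support for the rise. The difference of MARCHF4 was 0.19 ± 0.77 when arrays were grouped by the raw table's header. Under the normalized table's names, that grouping sets replicate 1 against replicate 2. If the header is right, it is the contrast between the groups and 0.19 is their difference. The brightest MACROH2A1 probe would then spread from 11.97 to 13.02 (log2) within wild type and from 11.83 to 12.91 within mH2A1.2_KO. Which table names the arrays rightly was not tested. The count of 0 probes past the test was 69 without wild type replicate 1, 211 without wild type replicate 2 and 5 with no detection filter, and it ran from 0 to 211 when 1 array was left out. With a replicate block it was 647. No label states that equal numbers mark paired arrays, and same-numbered arrays deviated together with a correlation of 0.57. The number of probes at least 2-fold apart, 131 as reported, was 314 with neqc on the raw signals, 87 with quantile-normalized log2 raw signals and 460 in the concordant pair, and it ran from 122 to 273 (the highest without wild type replicate 2) when 1 array was left out. Under the header's grouping 20 of 101 such probes were higher, against 93 of 131 as reported.

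The list medians, -0.014, 0.065 and -0.021 in the order below, moved by amounts near to or above their own size. Those of substrates or partners and of other membrane RING ligases changed sign. For reported substrates or partners the median ran from -0.026 to 0.055 when 1 array was left out, was -0.058 under the header's grouping and 0.064 in the concordant pair. For ubiquitin, E1 and E2 genes it ran from 0.0086 to 0.054, was 0.085 with neqc, 0.043 under the header's grouping and 0.033 in the concordant pair. For other membrane RING ligases it ran from -0.033 to 0.093 and was -0.067 under the header's grouping. The cause of these shifts was not tested. When 1 array was left out, the brightest MARCHF2 probe ran from -0.36 to 0.43 and MARCHF6 from -0.49 to 0.01, so neither has a settled direction. Probes below background have no order between arrays, which limits what can be said of MARCHF3, MARCHF8 and MARCHF9.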
